A study of Mus musculus with 6 samples.

Results

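The genes described here are *Cd14*, *Ly96*, 7 Toll-like receptor genes (*Tlr1*, *Tlr2*, *Tlr4*, *Tlr6*, *Tlr7*, *Tlr9* and *Tlr13*) and the adaptor gene *Myd88*, 10 of the 55367 genes in the deposited expression table. They were chosen from the expression differences between *Piezo1 cKO* and WT libraries in this same table, together with their place in the receptor system for lipopolysaccharide (LPS). Their own differences between the groups are therefore a description and carry no test. The study deleted *Piezo1*, which encodes a mechanically gated ion channel, and compared leukemia stem cells (LSCs) with and without it by bulk RNA-seq. Both groups came from mice with acute myeloid leukemia (AML) driven by the MLL-AF9 fusion, and each group has 3 libraries.

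The *Piezo1 cKO* donors were *Mx1-cre; Piezo1 fl/fl* mice, and the WT donors were *Piezo1 fl/fl* littermates without Cre. All were on the C57BL/6J background, 8 to 10 weeks old and injected with poly(I:C) (pIpC). This agent is itself a ligand of a Toll-like receptor, TLR3, and both groups received it. *Mx1-cre* is switched on by interferon and is not restricted to leukemia cells. Lin- bone marrow cells were transduced with the retrovirus MSCV-MLL-AF9-IRES-YFP and transplanted into irradiated recipients, and LSCs were sorted from their marrow. The LSC gate in the study's methods is Lin-Sca-1-c-Kit+CD34+YFP+ with high CD16/32. The transplant round and the number of animals behind each library were not given in the sources used here.

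Toll-like receptors are membrane proteins that recognize conserved microbial molecules, some at the cell surface and some inside endosomes. LPS of Gram-negative bacteria is handed by CD14 to the complex of TLR4 with MD-2, the protein encoded by *Ly96*. Most members of the family recruit the adaptor MYD88, which leads through IRAK kinases and TRAF6 to NF-κB and MAP kinases. In the myeloid lineage these receptors are best known from monocytes, macrophages and neutrophils, and hematopoietic progenitors express some of them too.

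The deposited values are on a log2 scale, normalized by the authors for library size, and shrunken in the manner of a regularized log, each gene being drawn to its own mean. Differences on this scale are thus smaller than those of the reads, above all where a gene has few of them. The transform was undone to give reads, and 92.8% of the values of genes with a mean of at least 1 read lay within 0.1 of a whole number. Stages were added to that fit after a first version had given a lower share. Recovered reads on genes ran from 14112122 to 15483610 per library. Values per library below are recovered reads divided by the library's size factor, called normalized reads. The reads carry no molecular identifiers, so intervals and floors given below cover counting error only. The labels do not say whether the 3 libraries of a group came from separate animals, so p-values measure only the spread between these samples, which may be technical.

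*Piezo1* checked the labels first. It had 101, 92.8 and 109 normalized reads in the WT libraries and 36.6, 56.5 and 45.8 in the *Piezo1 cKO* libraries. Every *Piezo1 cKO* library lay below every WT library, with 45.9% of the WT mean left (log2 fold change on the deposited scale -0.29 ± 0.04 SE, limma adjusted p = 5.8e-06). Counts are per gene and span all exons, and reads from exons that Cre leaves in place are not told apart from reads of the intact transcript.

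The genes of the sort gate were then read against the label. *Kit*, which encodes the stem cell factor receptor c-Kit, averaged 2522 normalized reads in WT and 3425 in *Piezo1 cKO* libraries, and *Cd34* averaged 3721 and 5796.5. Both rose in *Piezo1 cKO* LSCs (log2 fold change 0.31 with limma adjusted p = 8.42e-09, and 0.46 with 8.32e-12). *Fcgr3*, which encodes CD16, averaged 5405 and 5323 normalized reads and was not called (adjusted p = 0.574). *Fcgr2b*, which encodes CD32, fell by 0.75 (adjusted p = 1.29e-13), from 3468 to 1667 normalized reads. *Ly6a*, the Sca-1 gene, had at most 1 read in each WT library and 10, 17 and 7 reads in the *Piezo1 cKO* libraries. The genes the gate selects for were thus well read in all 6 libraries, and the gene it selects against was near the floor in WT and low in *Piezo1 cKO* LSCs. Of 3 genes of the MLL-AF9 program, *Hoxa9* averaged 3422.5 and 3436 normalized reads (adjusted p = 0.946) and *Hoxa10* 593 and 585 (adjusted p = 0.776), and *Meis1* fell from 896 to 777 (adjusted p = 0.00278).

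The LPS receptor genes come first. *Cd14* encodes a membrane-anchored protein that binds LPS and delivers it to the TLR4 complex. *Cd14* had 5936, 6139 and 6449 normalized reads in the WT libraries and 423, 490.3 and 417 in the *Piezo1 cKO* libraries. All 3 *Piezo1 cKO* libraries were low and close together, and the groups were far apart. The mean was 6175 ± 258 (SD, n = 3) in WT and 444 ± 40.6 (SD, n = 3) in *Piezo1 cKO* LSCs, or 7.18% of the WT level, 13.9-fold lower. The log2 fold change was -2.65 ± 0.04 (SE) on the deposited scale and -3.80 ± 0.06 on recovered reads. In bulk RNA, fewer cells that express a gene and less of its RNA per cell cannot be told apart. The reads recovered for *Cd14* lay up to 0.201 from a whole number, which is small beside counts of 405 or more.

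*Tlr4* encodes the receptor that signals once LPS is bound. It had 296, 303 and 296 normalized reads in WT libraries and 47.0, 40.0 and 58.0 in *Piezo1 cKO* libraries. The WT libraries were nearly level, and every *Piezo1 cKO* library was far below them. The mean went from 298 ± 3.83 to 48.3 ± 9.09 (SD, n = 3 each), 16.2% of the WT level, with a log2 fold change of -1.01 ± 0.04 (SE) on the deposited scale and -2.63 ± 0.14 on reads.

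*Ly96*, whose product MD-2 sits on the ectodomain of TLR4 and holds the lipid part of LPS, differed from the other genes of this complex. It had 33.0, 44.4 and 29.8 normalized reads in WT libraries and 41.8, 45.8 and 44.8 in *Piezo1 cKO* libraries. The groups overlapped, since WT replicate 2 lay inside the *Piezo1 cKO* range. The means were 35.7 ± 7.67 and 44.1 ± 2.09 (SD, n = 3 each), and the log2 fold change was 0.05 ± 0.03 (SE) on the deposited scale and 0.33 ± 0.21 on recovered reads. Leaving out any 1 library gave 0.03 to 0.08 and 0.21 to 0.49. Counts were only 31 to 47 reads per library, so a small difference may be missed.

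**Figure D1:**
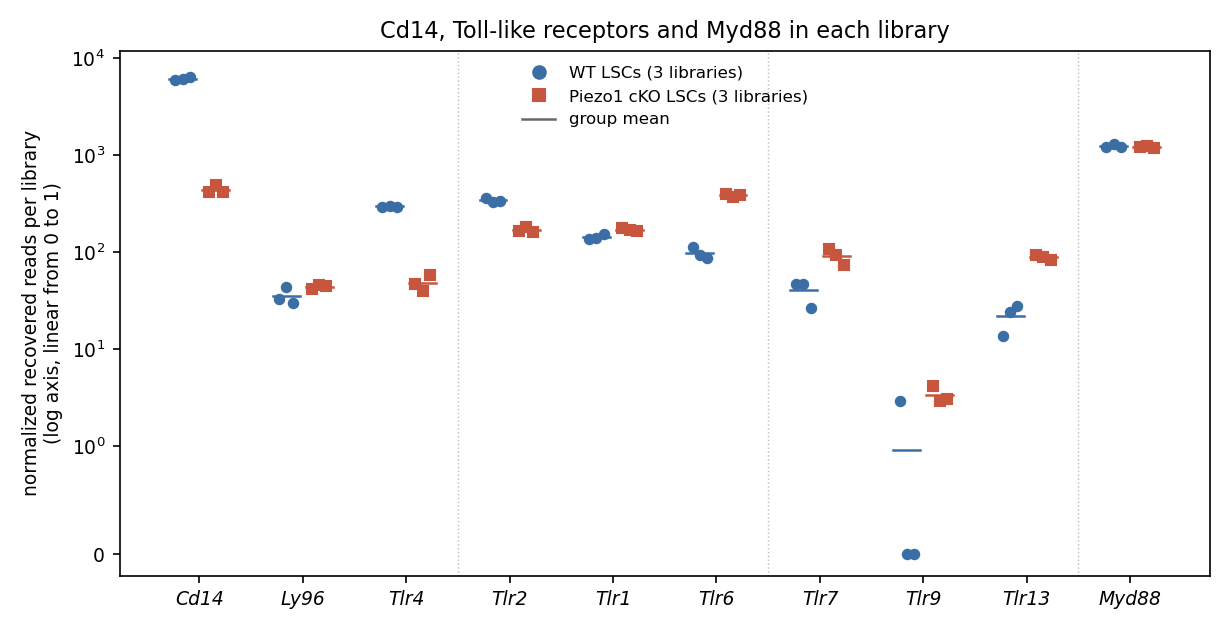
Normalized recovered reads (log axis, linear between 0 and 1) of the 10 genes in each of 3 WT (circles) and 3 *Piezo1 cKO* (squares) LSC libraries, with group means as lines and dotted lines between roles. *Cd14*, *Tlr4* and *Tlr2* lie lower in *Piezo1 cKO* libraries, *Tlr6*, *Tlr7* and *Tlr13* lie higher, and the groups overlap for *Ly96* and *Myd88*.

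The receptors of the cell surface that bind bacterial lipopeptides are TLR2 and its partners. TLR2 pairs with TLR1 for triacylated and with TLR6 for diacylated lipopeptides. *Tlr2* had 361, 334 and 341 normalized reads in WT libraries and 165, 183 and 161 in *Piezo1 cKO* libraries. Each *Piezo1 cKO* library was well below the lowest WT library. The mean went from 345 ± 14.0 to 169.7 ± 11.9 (SD, n = 3 each), 49.2% of the WT level, with a log2 fold change of -0.50 ± 0.04 (SE) on the deposited scale and -1.02 ± 0.09 on reads.

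The partner genes of *Tlr2* differed the other way, by unequal amounts. *Tlr6* had 114, 94.9 and 86.6 normalized reads in WT libraries and 396, 375 and 389.7 in *Piezo1 cKO* libraries. All *Piezo1 cKO* libraries were high, with no overlap, and the mean was 3.94-fold higher (98.3 ± 13.8 against 387 ± 10.6, SD, n = 3 each). Its log2 fold change was 0.91 ± 0.04 (SE) on the deposited scale, the highest of the 10 genes on that scale, and 1.98 ± 0.11 on reads. *Tlr1* had 136, 142 and 154 normalized reads in WT libraries and 178, 169 and 168 in *Piezo1 cKO* libraries. Its groups did not overlap, but the lowest *Piezo1 cKO* library was close to the highest WT library, and the mean was 1.19-fold higher (log2 fold change 0.10 ± 0.04 on the deposited scale and 0.25 ± 0.10 on reads).

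Per kilobase of exon, the *Tlr6* share of the summed *Tlr6* and *Tlr1* level was 42.9%, 37.4% and 33.6% in WT libraries and 66.7%, 66.6% and 67.6% in *Piezo1 cKO* libraries. The gene with the larger level of the pair was therefore *Tlr1* in each WT library and *Tlr6* in each *Piezo1 cKO* library. The same share for *Tlr4* in the sum with *Ly96* was 62.2%, 55.6% and 64.6% in WT and 17.1%, 13.8% and 19.2% in *Piezo1 cKO* libraries. *Tlr4* was the larger of that pair in each WT library and the smaller in each *Piezo1 cKO* library. These shares compare RNA levels and say nothing about the amounts of receptor complex.

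The endosomal receptors read nucleic acids after uptake. TLR7 recognizes single-stranded RNA, TLR13 a bacterial ribosomal RNA sequence and TLR9 unmethylated CpG DNA. *Tlr7* had 47.5, 47.4 and 26.9 normalized reads in WT libraries and 108, 93.6 and 73.3 in *Piezo1 cKO* libraries. The *Piezo1 cKO* libraries were all higher, and the spread within each group was wide. The mean was 2.25-fold higher (40.6 ± 11.9 against 91.5 ± 17.3, SD, n = 3 each), with a log2 fold change of 0.28 ± 0.05 (SE) on the deposited scale and 1.19 ± 0.22 on reads.

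*Tlr13* had 13.6, 24.2 and 27.9 normalized reads in WT libraries and 93.0, 90.65 and 84.45 in *Piezo1 cKO* libraries. All *Piezo1 cKO* libraries were high and all WT libraries low. The mean was 4.08-fold higher (21.9 ± 7.43 against 89.4 ± 4.40, SD, n = 3 each), with a log2 fold change of 0.40 ± 0.04 (SE) on the deposited scale and 2.07 ± 0.24 on reads. *Tlr9* was at the edge of detection, with 3, 0 and 0 reads in WT and 4, 3 and 3 reads in *Piezo1 cKO* libraries. The ratio of its counts was 3.44, with a 95% counting interval from 0.886 to 19.5 that includes no difference. Its separation between the groups rests on less than 1 normalized read.

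*Myd88*, the adaptor shared by nearly all of these receptors, was level. It had 1229, 1301 and 1209 normalized reads in WT libraries and 1221, 1236 and 1202 in *Piezo1 cKO* libraries. The groups overlapped, and the *Piezo1 cKO* mean was 97.8% of the WT mean (log2 fold change -0.02 ± 0.03 SE on the deposited scale and -0.03 ± 0.04 on reads). Its exons share 290 bases with *Acaa1a* on the other strand, and the library kit does not mark strand. Of the sequences of 50 bases in *Myd88* transcripts, 7.42% also occur in *Acaa1a*, so a small part of its reads may not be assignable to either gene. That part was not measured.

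**Figure D2:**
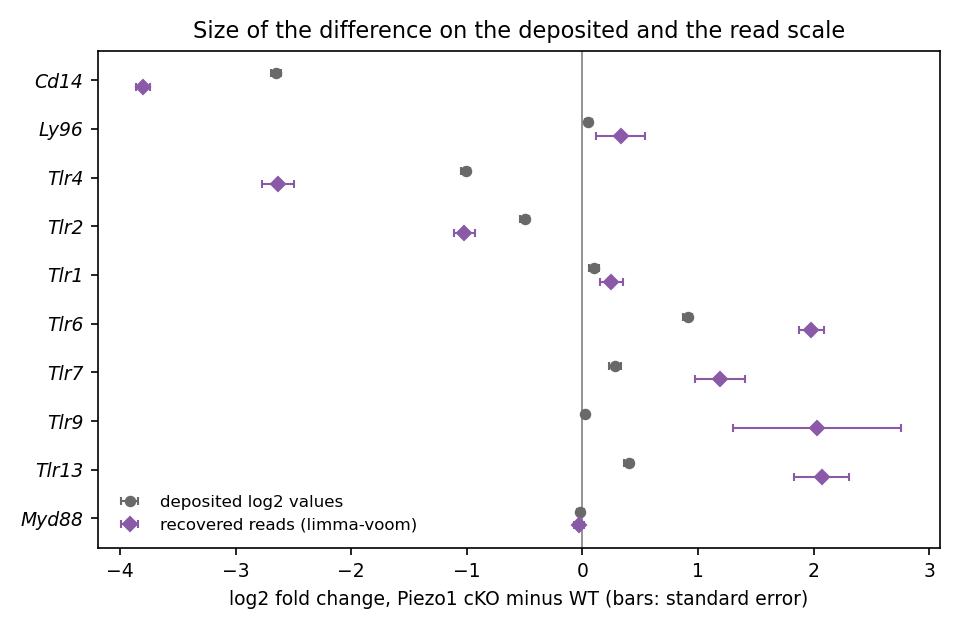
Log2 fold change (*Piezo1 cKO* minus WT, 3 libraries each) of the 10 genes, on the deposited scale (circles) and on recovered reads (diamonds), with bars for the standard error. Each gene lies on the same side of 0 on both scales, and the reads give the larger difference, above all for low genes such as *Tlr13* and *Tlr9*.

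All 10 genes had values and all 10 passed the expression filter (a mean of 1 or more on the deposited scale). In 8 of the 10 the groups did not overlap, with every *Piezo1 cKO* library lower in 3 genes (*Cd14*, *Tlr4* and *Tlr2*) and higher in 5 (*Tlr6*, *Tlr1*, *Tlr7*, *Tlr13* and *Tlr9*). Among all 16746 genes tested, 66.6% had groups that did not overlap, and since the 10 genes were chosen on this contrast nothing is read from the count. Across the table, 5298 genes (31.6%) were called higher and 5258 (31.4%) lower in *Piezo1 cKO* LSCs by limma at an adjusted p under 0.05. On recovered reads 5477 of 17352 genes (31.6%) were called higher and 5443 (31.4%) lower. Of the calls on the deposited scale, 50.2% were higher. When each library was shifted to the same median, which moved log2 fold changes by 0.022, 6450 genes were called higher and 4214 lower, and 60.5% of calls were higher.

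The order of levels within a group is given as normalized reads per kilobase of exon. In WT LSCs *Cd14* led with 3565 ± 149 (SD, n = 3), at rank 148 of the 25586 genes with a known length. *Myd88* followed with 484, *Tlr2* with 114.5, *Tlr4* with 53.7 and *Tlr1* with 43.0. *Ly96* came next with 35.0, and its range over libraries overlapped those of its neighbours *Tlr1* and *Tlr6* (26.4). *Tlr7* (9.96), *Tlr13* (5.09) and *Tlr9* (0.279) closed the order, each below the range of the gene before it.

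In *Piezo1 cKO* LSCs the order on the same scale was another one. *Myd88* led with 473.5 and *Cd14* was next with 256 ± 23.4, at rank 3258. *Tlr6* had moved ahead of *Tlr2*, with 104 against 56.3. *Tlr1* (51.2) and *Ly96* (43.2) followed, then *Tlr7* (22.4) and *Tlr13* (20.8), whose ranges overlapped. *Tlr4* had 8.70 and was below *Tlr13*, and *Tlr9* was last with 0.973.

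The genes lie on 7 chromosomes of the GRCm38 build. *Cd14* is at chr18:36725067-36726798, *Ly96* at chr1:16688051-16709611, *Tlr2* at chr3:83836272-83841767 and *Tlr4* at chr4:66827584-66930284. *Tlr7* (chrX:167304929-167330558) and *Tlr13* (chrX:106143204-106160493) are on the X chromosome, and *Tlr9* (chr9:106222598-106226883) and *Myd88* (chr9:119335934-119341411) are both on chromosome 9. *Tlr1* (chr5:64924679-64933563) and *Tlr6* (chr5:64952031-64960097) are neighbours on the minus strand of chromosome 5 and are similar in sequence. Their transcripts share 454 sequences of 50 bases, 13.6% of those of *Tlr1* and 12.3% of those of *Tlr6*. A stretch of 50 bases from these sequences does not by itself tell *Tlr1* from *Tlr6*, and the share of reads affected was not measured. The difference in *Tlr1*, which is small beside that in *Tlr6*, is therefore uncertain.

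The genes closest to *Cd14* in pattern were found by the root mean square difference of centred deposited values over the 6 libraries, among 16745 other genes. With a pair of groups and close replicates this measure mainly finds genes with a similar group difference on the deposited scale, so their lower values in *Piezo1 cKO* libraries follow from how they were chosen. They were *Nupr1* (0.072), *Rbm44* (0.113), *Mecom* (0.138), *Cebpb* (0.150) and *Eif3b* (0.210). The sizes of the differences were not alike on recovered reads, where *Cd14* was 13.9-fold lower with a log2 fold change of -3.80. There *Rbm44* was 101-fold (-6.60), *Cebpb* 27.6-fold (-4.77) and *Eif3b* 8.66-fold lower (-3.11). *Nupr1* (2 reads in the *Piezo1 cKO* libraries together) had a ratio of 1060.5 lower with a counting interval from 293 to 8763, and *Mecom* (1 read) had 1879.8 with an interval from 337 to 74286. *Cebpb*, which encodes a C/EBP transcription factor of the myeloid lineage, had 947, 941 and 961 normalized reads in WT and 32.4, 35.1 and 35.6 in *Piezo1 cKO* libraries. *Mecom*, which encodes the EVI1 transcription factor, had 691, 579 and 629 normalized reads in WT libraries and at most 1 read in each *Piezo1 cKO* library. The closest genes to *Tlr6* were *Adgrl4*, *Gm26740* and *Mob3b* (0.032 each), *Gm42992* (0.039) and *Cd180* (0.041). They rose 3.26-fold, 3.16-fold, 3.45-fold, 2.49-fold and 2.42-fold in normalized reads, each less than *Tlr6* (3.94-fold). *Cd180* belongs to the Toll-like receptor relatives described next.

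The other Toll-like receptors and relatives form a list of 7 genes, of which 6 were tested. Of these, 4 (66.7%) were called higher, 1 (16.7%) lower and 1 was not called, beside 31.6% and 31.4% of all genes tested. Their median log2 fold change was 0.06 on the deposited scale, beside 0.00 over all genes tested. On recovered reads it was 0.84, or 0.72 with the 2 genes that had no read in WT libraries placed at their bound, beside 0.00 over all genes. *Cd180* encodes a relative of TLR4 without a signalling domain, and *Ly86* encodes MD-1, which holds CD180 as MD-2 holds TLR4. *Cd180* had 999, 1011 and 976 normalized reads in WT libraries and 2472, 2336 and 2429 in *Piezo1 cKO* libraries. It rose 2.42-fold, with no overlap (log2 fold change 0.88 ± 0.03 SE, limma adjusted p = 1.16e-14). *Ly86* had 2723, 2675 and 2612 normalized reads in WT and 3325, 3099 and 3130 in *Piezo1 cKO* libraries, and rose 1.19-fold (adjusted p = 1.69e-05). The *Cd180* share of their summed level per kilobase was 22.8%, 23.3% and 23.1% in WT and 37.5%, 37.8% and 38.5% in *Piezo1 cKO* libraries. *Cd180* shares 182 bases of exon with *Mast4* on the other strand, and 3.03% of its sequences of 50 bases.

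The remaining receptors of that list had few reads. *Tlr8*, an RNA receptor at chrX:167242696-167264329 close to *Tlr7*, had 19.4, 16.1 and 16.4 normalized reads in WT and 0, 0.97 and 3.05 in *Piezo1 cKO* libraries. It fell, opposite to the higher *Tlr7* reads (log2 fold change -0.12 ± 0.02 SE, adjusted p = 2.21e-05). *Tlr5*, the flagellin receptor, had no read in WT and 9.40, 10.7 and 10.2 normalized reads in *Piezo1 cKO* libraries, at least 3.435-fold higher against a floor of 3 reads per library (adjusted p = 6e-05). *Tlr11*, a receptor for a protozoan profilin, had no read in WT and 7.31, 5.85 and 5.09 in *Piezo1 cKO* libraries, at least 2.07-fold higher (adjusted p = 0.000515). *Tlr12* averaged 15.3 and 20.1 normalized reads and was not called (adjusted p = 0.292). *Tlr3*, whose product binds the double-stranded RNA analog pIpC, had 1 read in all 6 libraries together and was not tested.

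Ligand delivery, chaperones and trafficking were covered by 20 genes, of which 18 were tested. Of these, 11 (61.1%) were called higher and 5 (27.8%) lower, beside 31.6% and 31.4% of all genes tested. The median log2 fold change was 0.09, and 0.13 on recovered reads. *Tril* was at 0 in all libraries and *Scimp* was too low to be tested. *Lbp* encodes the LPS-binding protein that passes LPS to CD14, and it rose from a mean of 277 to 382 normalized reads (log2 fold change 0.25 ± 0.04 SE, limma adjusted p = 1.35e-05). *Cd36*, a scavenger receptor that assists the pair of TLR2 and TLR6, had 1 read in the 3 WT libraries together and 56.4, 69.2 and 52.9 normalized reads in *Piezo1 cKO* libraries. The ratio was 183, with a counting interval from 32.4 to 7255 (log2 fold change 0.43, adjusted p = 1.43e-09). *Ctss*, a protease that processes endosomal receptors, rose 1.94-fold, from 664 to 1287 (adjusted p = 1.17e-11). *Hsp90b1*, which encodes the receptor chaperone GP96, fell to 75.5% of its WT level (adjusted p = 8.84e-09), and *Tmed7*, whose product helps carry TLR4 to the surface, to 55.5% (adjusted p = 1.61e-06). The chaperone gene *Cnpy4* rose 1.41-fold (adjusted p = 1.73e-07). *5430427O19Rik*, which encodes TASL, an adaptor of endosomal receptors, rose 1.42-fold (adjusted p = 1.49e-06). *Ap3b1*, a subunit of a sorting adaptor, fell to 71.4% of the WT level, and the protease genes *Ctsl* and *Ctsb* fell to 55.5% and 93.7% (adjusted p = 8.94e-08, 0.00012 and 0.00127).

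Adaptors and kinases other than *Myd88* comprised 32 genes, all tested. Of these, 10 (31.2%) were called higher, 12 (37.5%) lower and 10 were not called, beside 31.6% and 31.4% of all genes tested. The median log2 fold change was -0.04, and -0.09 on recovered reads. *Mapk14*, which encodes the kinase p38α, had 1466, 1454 and 1501 normalized reads in WT and 466, 474 and 457 in *Piezo1 cKO* libraries. It fell by 1.08 on the deposited log2 scale, to 31.6% of the WT level, the largest decrease of the list (adjusted p = 1.36e-15). *Irak2*, a kinase of the MYD88 complex, fell from 624 to 305 normalized reads (log2 fold change -0.59 ± 0.03 SE, adjusted p = 5.53e-11). *Irak4*, the first kinase of that complex, rose from 614 to 856 (log2 fold change 0.30 ± 0.05 SE, adjusted p = 1.31e-05). *Ikbke* fell from 593 to 297 normalized reads (adjusted p = 1.01e-09), while its relative *Tbk1* rose from 1442 to 1915 (adjusted p = 3.02e-07). *Pik3ap1*, which encodes the adaptor BCAP, fell to 64.4% of the WT level (adjusted p = 6.03e-09). *Ticam2*, which encodes the TRAM adaptor of TLR4, had 96.1, 72.7 and 96.2 normalized reads in WT and 168, 179 and 176 in *Piezo1 cKO* libraries, and rose 1.98-fold (adjusted p = 5.67e-07). *Btk* rose 1.35-fold (adjusted p = 5.22e-09) and *Traf6* rose 1.25-fold (adjusted p = 0.000121). *Map2k4* fell to 70.5% of the WT level (adjusted p = 1.35e-06).

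Transcription factors downstream of the receptors comprised 12 genes, all tested. Of these, 8 (66.7%) were called higher and 3 (25%) lower, beside 31.6% and 31.4% of all genes tested. The median log2 fold change was 0.13, and 0.18 on recovered reads. The 3 lower genes were all of the NF-κB family. *Nfkb2* had 1247, 1348 and 1363 normalized reads in WT and 476, 537 and 571 in *Piezo1 cKO* libraries, and fell by 0.85 (adjusted p = 1.53e-12). *Relb*, the partner of the *Nfkb2* product in the non-canonical pathway, had 244, 271 and 262 in WT and 63.7, 69.2 and 58.0 in *Piezo1 cKO* libraries, and fell by 0.78 (adjusted p = 4.44e-12). Both were low in all *Piezo1 cKO* libraries. *Rel* was at 92.6% of its WT level with an adjusted p of 0.0489, and its call was lost without any 1 of 5 libraries, with adjusted p from 0.0561 without *Piezo1 cKO* replicate 1 to 0.145 without WT replicate 1. The *Rel* call was also lost with libraries at the same median (limma adjusted p = 0.176) or with no filter on low values (0.0674). On recovered reads scaled to library totals it was lost too (limma-voom adjusted p = 0.0855). *Nfkb1*, of the canonical pathway, rose 1.16-fold (adjusted p = 0.000151). *Irf7*, an interferon regulatory factor downstream of TLR7 and TLR9, rose from 70.6 to 185 normalized reads, 2.62-fold (log2 fold change 0.49 ± 0.04 SE, adjusted p = 2.38e-09). *Irf1*, *Irf8* and *Fos* rose 1.33-fold, 1.23-fold and 1.30-fold.

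Negative regulators comprised 27 genes, all tested. Of these, 9 (33.3%) were called higher and 15 (55.6%) lower, beside 31.6% and 31.4% of all genes tested. The median log2 fold change was -0.09, and -0.17 on recovered reads. *Socs3*, an inhibitor of cytokine signalling through JAK kinases, had 490, 474 and 565 normalized reads in WT and 10.4, 8.77 and 8.14 in *Piezo1 cKO* libraries. It fell to 1.79% of the WT level, 55.9-fold lower (adjusted p = 1.84e-17). *Bcl3*, an atypical IκB protein, had 321, 386 and 360 in WT and 17.8, 27.3 and 26.5 in *Piezo1 cKO* libraries, and fell by 1.41 (adjusted p = 3.32e-15). Both genes were low in every *Piezo1 cKO* library. *Nfkbia*, which encodes IκBα, fell from 1866 to 813 normalized reads (log2 fold change -0.81 ± 0.03 SE, adjusted p = 8.84e-14). *Tnfaip3*, which encodes the ubiquitin-editing enzyme A20, fell to 43.8% (adjusted p = 6.6e-08). *Tnip3*, which encodes a binding partner of A20, had 42.7, 46.4 and 53.9 normalized reads in WT and 1 read in the 3 *Piezo1 cKO* libraries together, a ratio of 141.5 lower with a counting interval from 25 to 5625.5 (adjusted p = 6.19e-09). In the other direction, the phosphatase gene *Dusp1* rose from 1323 to 2366 (log2 fold change 0.58 ± 0.03 SE, adjusted p = 2.82e-12). *Trafd1* rose 1.65-fold (adjusted p = 9.89e-11). *Nlrx1*, *Trim30a* and *Nlrc5* rose 1.33-fold, 1.36-fold and 1.47-fold (adjusted p = 4.2e-05, 7.25e-05 and 0.00117).

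Genes that LPS is known to induce comprised 31 genes, and 20 were tested (median log2 fold change -0.05). Of these, 6 (30%) were called higher and 10 (50%) lower, beside 31.6% and 31.4% of all genes tested. With a mean of at least 50 recovered reads required, 4 were called higher and 2 lower, so the excess of lower calls rests on genes with few reads. On recovered reads 21 were tested, and the median was -0.89, or -0.36 with the 3 genes that had no read in *Piezo1 cKO* libraries placed at their bound, so its size depends on genes with few reads. Of the other 11, *Il1b*, *Il10*, *Il12b*, *Cxcl1*, *Nos2* and *Ifnb1* were at 0 in all libraries, and *Il1a*, *Cxcl3*, *Ptgs2*, *Saa3* and *Marco* were too low to be tested. *Ccl3*, a chemokine gene, had 658, 712 and 690 normalized reads in WT and 2244, 2374 and 2275 in *Piezo1 cKO* libraries. It rose 3.35-fold (log2 fold change 1.18 ± 0.03 SE, adjusted p = 3.61e-16). The related chemokine gene *Ccl4* had 48.5, 46.4 and 44.3 in WT and 321, 286 and 278 in *Piezo1 cKO* libraries, and rose 6.35-fold (adjusted p = 1.16e-13). *Cxcl10* did the reverse, with 61.1, 54.5 and 63.5 normalized reads in WT and none in *Piezo1 cKO* libraries, at least 19.7-fold lower against the floor (adjusted p = 4.8e-10). *Il12a* rose from 653 to 1303 (adjusted p = 1.47e-11), and *Tnf* fell from 53.5 to 25.8 (adjusted p = 0.000308). *Cxcl2*, at few reads, rose from 8.16 to 18.5 (adjusted p = 0.00781). *Tnfaip2* fell to 29.4%, *Il1rn* to 32.1% and *Icam1* to 54.3% of their WT levels (adjusted p = 5.36e-10, 2.01e-06 and 1.53e-07). *Nfkbiz* rose 1.27-fold (adjusted p = 0.0125), and its call was lost without *Piezo1 cKO* replicate 2 (adjusted p = 0.0513) or WT replicate 3 (0.0571).

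**Figure D3:**
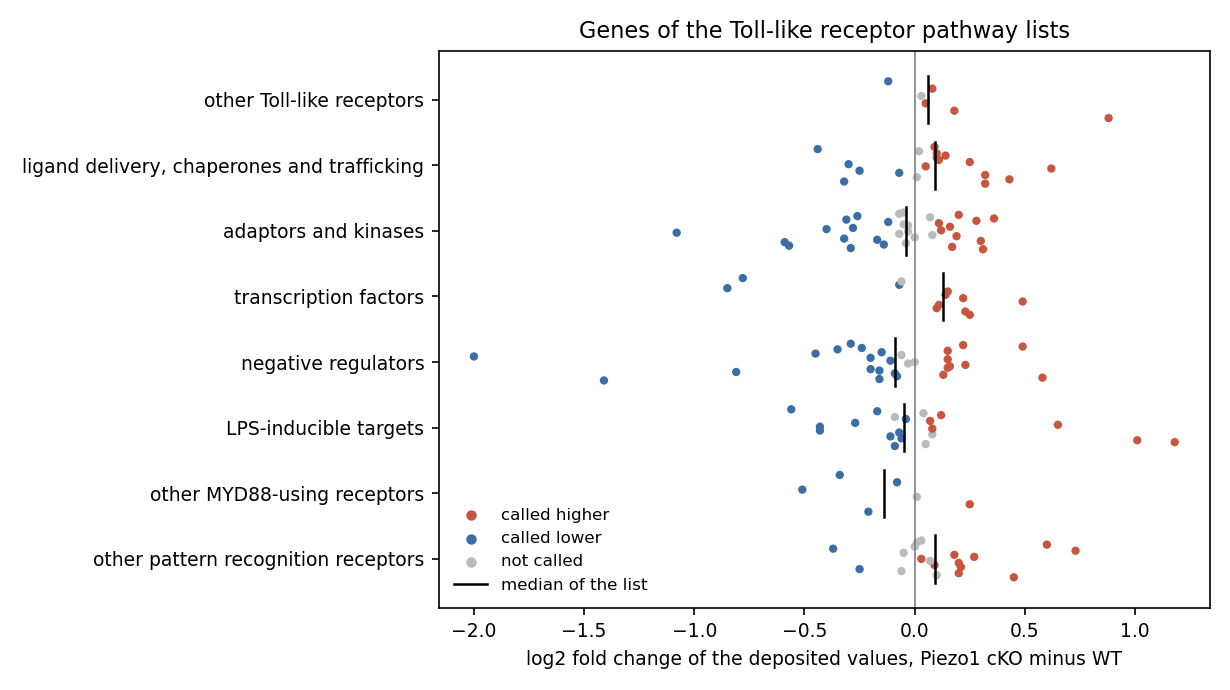
Log2 fold change of the deposited values (*Piezo1 cKO* minus WT, 3 libraries each) for each tested gene of 8 pathway lists, coloured by the limma call at an adjusted p under 0.05, with the list's median as a black line. Genes called higher and lower occur in every list, with *Socs3* and *Bcl3* farthest to the left and *Ccl3* and *Ccl4* farthest to the right.

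The interleukin-1 receptor family includes other receptors that signal through MYD88. Of 7 listed genes of this family, 6 were tested, and *Il18r1* was too low to be tested. Of the 6, 1 (16.7%) was called higher and 4 (66.7%) lower, beside 31.6% and 31.4% of all genes tested. The median log2 fold change was -0.14, and -0.79 on recovered reads. *Il1rap*, the shared accessory chain, fell from 629.7 to 342 normalized reads (log2 fold change -0.51 ± 0.04 SE, adjusted p = 7.86e-09). *Il1rl2* fell from 119.9 to 51.2 (adjusted p = 2.26e-07) and *Il18rap* from 112 to 69.0 (adjusted p = 0.000265). *Il1rl1*, which is also in the list of negative regulators, fell from 20.5 to 9.13 (adjusted p = 0.00875), and its call was lost when libraries were shifted to the same median (adjusted p = 0.0515). *Il1r1*, which encodes the interleukin-1 receptor itself, had 56.3, 44.4 and 39.4 normalized reads in WT and 100.3, 94.6 and 83.4 in *Piezo1 cKO* libraries, and rose 1.99-fold (adjusted p = 2.76e-05). The receptor gene and the gene of its accessory chain thus differed in opposite directions.

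Pattern recognition receptors outside the Toll-like family comprised 22 genes, with 19 tested. Of these, 10 (52.6%) were called higher and 2 (10.5%) lower, beside 31.6% and 31.4% of all genes tested. The median log2 fold change was 0.09, and 0.34 on recovered reads with or without *Clec4n* at its bound. *Fpr1* and *Fpr2* were at 0 in all libraries, and *Nlrp1b* was too low to be tested. *Nlrc4*, the inflammasome gene for flagellin and secretion system proteins, had 1232, 1202 and 1215 normalized reads in WT and 2599, 2501 and 2503 in *Piezo1 cKO* libraries, and rose 2.08-fold (log2 fold change 0.73 ± 0.03 SE, adjusted p = 8.3e-14). *Naip2*, its sensor partner, rose 1.47-fold (adjusted p = 1.29e-05). *Sting1* rose from 714 to 1349 (adjusted p = 1.96e-11) and *Aim2*, a sensor of cytosolic DNA, from 309 to 535 (adjusted p = 2.83e-07). *Clec7a*, the gene of the fungal receptor Dectin-1, rose from 493 to 629 (adjusted p = 6.85e-05). The genes called lower were *Nod1*, at 60.4% of its WT level (adjusted p = 4.52e-07), and *Clec4n*. *Clec4n*, which encodes the fungal receptor Dectin-2, had 32.0, 39.4 and 27.9 normalized reads in WT and none in *Piezo1 cKO* libraries, at least 10.9-fold lower (adjusted p = 1.36e-07).

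The 8 lists together hold 157 genes, of which 139 were tested. Of these, 59 (42.4%) were called higher, 51 (36.7%) lower and 29 were not called, beside 31.6% and 31.4% of all genes tested. The median log2 fold change was 0.01 over the lists and 0.00 over all genes. On recovered reads 140 were tested, with 58 higher and 52 lower and a median of 0.04, also with 6 genes at their bound. The pathway genes thus differed in both directions in similar numbers.

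Marker genes of 7 other cell types were read in the same libraries. Their counts of calls stand beside 31.6% of all genes tested called higher and 31.4% called lower. The LSC gate, being Lin-, c-Kit+ and YFP+, is set to leave out mature cells of the blood lineages. The 16 monocyte and macrophage markers summed to 35641, 35089 and 34931 normalized reads in WT and 30419, 29487 and 29452 in *Piezo1 cKO* libraries, 84.6% of WT. *F13a1* was the most abundant of them in both groups (58.2% of the sum over the 6 libraries), and without it the mean sum was higher in *Piezo1 cKO* LSCs, at 14435 against 12711. Of 13 tested, 6 were called higher and 2 lower, and *Fcgr1* and *C1qa* had no read. The direction of this list therefore rested on *F13a1*.

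The 10 neutrophil markers summed to 2547, 2528 and 2524 normalized reads in WT and 956, 910.4 and 942 in *Piezo1 cKO* libraries, 37% of WT, with 1 called higher and 6 lower of 8 tested. The most abundant was *Ngp* over the 6 libraries (40.8%) and in WT (50.4%), and *Mmp8* in *Piezo1 cKO* LSCs (67.7%). Without *Ngp* the *Piezo1 cKO* sum was 63.4% of WT. *Ngp* fell from a mean of 1277 to 139.5, *S100a9* fell from 262 to 6.09, and *Mmp8* rose from 42.5 to 633. *Retnlg* had no read, and *Ly6g* was at or under the floor in every library. The neutrophil sum was lower in each *Piezo1 cKO* library, as were *Cd14*, *Tlr4* and *Tlr2*. The monocyte and macrophage sum above and the erythroid sum below were lower in each *Piezo1 cKO* library too. The part of these lists in the lower *Cd14*, *Tlr4* and *Tlr2* reads was not tested.

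Among the remaining lists, the B cell markers summed to 12224, 12586.5 and 12229 normalized reads in WT and 22739.9, 22631 and 22355 in *Piezo1 cKO* libraries (183% of WT, 3 higher and 0 lower of 4 tested). *Ighm* made up 88.2% of that sum, without which it was 159% of WT, and *Ms4a1* and *Pax5* were at or under the floor. The 7 dendritic cell markers summed to 829.6, 871 and 879 in WT and 1819.8, 1794.5 and 1787 in *Piezo1 cKO* libraries (209%, 5 higher and 1 lower of 6 tested). Most of that sum was *Flt3* (84.7%), which progenitors also express, and without it the sum was 91.6% of WT with overlapping groups. Of the other markers, *Zbtb46* fell from a mean of 181 to 74.6, while *Cd209a*, *Xcr1*, *Clec9a*, *Siglech* and *Itgax*, with means of at most 61.1, were higher in every *Piezo1 cKO* library than in any WT library. The 5 mast cell and basophil markers summed to 2914, 2958 and 3040.1 in WT and 9823, 9761 and 9616 in *Piezo1 cKO* libraries (328%, 4 higher and 0 lower of 5 tested). The most abundant was *Prss34* over the 6 libraries (52.9%) and in WT (76.6%), and *Cpa3* in *Piezo1 cKO* LSCs (51.4%). Without *Prss34* the sum was 762% of WT. *Cpa3*, which encodes a mast cell protease, rose 8.85-fold, from a mean of 565 to 5003 (adjusted p = 5.47e-20). No marker of the dendritic or mast cell list was without reads. The part of the B cell, dendritic and mast cell lists in the higher *Tlr6*, *Tlr7*, *Tlr13* and *Cd180* reads was not tested.

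The last lists were low. The 7 T and NK cell markers summed to 10.7, 9.1 and 5.8 normalized reads in WT and 33.4, 40.9 and 52.9 in *Piezo1 cKO* libraries, with 1 called higher and 1 lower of 2 tested. *Klrb1c* made up 96.9% of the *Piezo1 cKO* sum and had no read in WT, and the sum without it averaged 8.51 in WT and 1.30 in *Piezo1 cKO* libraries. *Cd8a* had no read, and *Cd3e*, *Cd3g*, *Cd4* and *Ncr1* were at or under the floor. The 5 erythroid markers summed to 120.3, 144 and 125 in WT and 39.7, 40.9 and 35.6 in *Piezo1 cKO* libraries (29.8% of WT, 0 higher and 2 lower of 4 tested), led by *Klf1* (59.2%), without which the sum was 36.1% of WT.

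Promoter sequences are shown for the TLR2 family, since *Tlr2* was lower and its partner genes higher. RefSeq windows of 300 bases around gene starts (GRCm38.p6) were looked up for 9 of the genes (*Cd14* was left out), and 6 had an entry, with none for *Ly96*, *Tlr4* and *Tlr7*. The window nearest to the annotated start of the gene was used. A PU.1-type motif (GAGGAAGT), a C/EBP-type motif (TTGCNNAA) and the NF-κB consensus were searched on both strands, and the motifs were chosen after the values were seen. They occur in 3.2%, 10.8% and 8.46% of all 32851 windows. The *Tlr2* window (chr3:83841559-83841858, minus strand) holds the NF-κB consensus at 2 places, at bases 78 to 88, where 3 matches on both strands overlap, and at bases 243 to 252, where the match reads on both strands. The *Tlr1* window (chr5:64933509-64933808, minus strand) holds GAGGAAGT at bases 228 to 235, and the *Tlr6* window (chr5:64959999-64960298, minus strand) holds none of the 3 motifs. Capitals mark the matches, which are a description of the letters and not of binding.
Tlr2: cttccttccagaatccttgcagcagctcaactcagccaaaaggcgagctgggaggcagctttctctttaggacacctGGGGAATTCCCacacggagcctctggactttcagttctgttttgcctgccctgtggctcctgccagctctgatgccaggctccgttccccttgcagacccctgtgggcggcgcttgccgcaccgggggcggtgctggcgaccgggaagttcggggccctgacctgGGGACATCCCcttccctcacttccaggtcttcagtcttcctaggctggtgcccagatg
Tlr1: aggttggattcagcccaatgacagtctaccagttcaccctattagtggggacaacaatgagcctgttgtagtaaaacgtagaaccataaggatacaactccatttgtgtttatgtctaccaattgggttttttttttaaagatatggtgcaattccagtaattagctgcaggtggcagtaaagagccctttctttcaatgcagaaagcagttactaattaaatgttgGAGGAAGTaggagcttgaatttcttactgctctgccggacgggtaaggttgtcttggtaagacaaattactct
Tlr6: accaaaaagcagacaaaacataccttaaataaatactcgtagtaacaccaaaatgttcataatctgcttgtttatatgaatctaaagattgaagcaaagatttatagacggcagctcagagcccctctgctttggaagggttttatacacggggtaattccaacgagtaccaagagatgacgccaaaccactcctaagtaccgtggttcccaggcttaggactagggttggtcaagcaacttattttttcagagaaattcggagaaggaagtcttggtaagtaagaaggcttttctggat

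Of the other windows, that of *Tlr13* (chrX:106143025-106143324, plus strand) holds TTGCNNAA at bases 251 to 258 on the opposite strand, and that of *Tlr9* (chr9:106222348-106222647, plus strand) holds GAGGAAGT at bases 261 to 268 on the opposite strand. A further window of *Tlr6*, farther from its annotated start (chr5:64959117-64959416), holds TTGCNNAA at bases 162 to 169 on the opposite strand. A further *Tlr1* window holds none of the 3 motifs. The window listed for *Myd88* is built around a start site 1393 bases from the annotated start of the gene, so it does not cover the annotated start, and it holds none of the 3 motifs either. No motif overlaps another one in these windows.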

How the data were processed

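RNA-seq libraries of LSCs from 3 WT and 3 *Piezo1 cKO* samples were compared. Per the submitters' processing notes, reads were trimmed with fastp 0.20.1, mapped to GRCm38 with HISAT2 2.2.1, counted with featureCounts 2.0.1 and normalized with DESeq2 1.28.1. The authors deposited log2 values (26402 genes from -1.97 to 18.06, and 28965 at 0 in all libraries); the transform is not named, and the values have the form of a regularized log. The 10 genes and all gene lists were chosen with earlier results of these data known.

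Genes with a mean of at least 1 (16746) were fitted with limma 3.58.1 in R 4.3.3 (lmFit, eBayes with a trend, no covariates) on the deposited log2 values, with Benjamini-Hochberg adjustment over all genes and calls at an adjusted p under 0.05. The transform was undone by fitting size factors, shrinkage strength and dispersion trend until values became whole numbers, and all 6 starting points reached the best fit. With the strength set 10% off, 22.2% of values of genes with a mean of at least 1 read were whole within 0.1; below a mean of 1 read, 26.6% were whole and values were rounded. Recovered reads of 17352 genes with at least 10 reads were fitted with limma-voom. Both steps were run on simulated data with known answers; the bar set for the fits was lowered after the fit of recovered reads had missed it, the missed genes having few reads and changes of about the size found for *Tlr7* or *Tnf*. The recovery was extended by further fitting stages after a first version left fewer values whole. Exon lengths and positions came from GENCODE M21 (25586 of 26402 genes with values matched, 96.9%), and promoter windows from RefSeq. Python 3.11.15, numpy 2.4.6, scipy 1.17.1, pandas 2.3.3 and matplotlib 3.10.9 were used.

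The genes named are the 10 genes, *Piezo1*, the gate genes, every gene of the list of other Toll-like receptors, up to 5 genes called higher and 5 called lower with the largest changes in each pathway list, the most abundant and the undetected genes of each marker list, and the 5 genes nearest in pattern to *Cd14* and *Tlr6*. The largest changes were taken on the deposited scale, so genes with few reads and larger folds on reads can be left out. *Hoxa9*, *Hoxa10*, *Meis1*, *S100a9*, *Mmp8*, *Cpa3*, the dendritic markers other than *Flt3*, the markers named at or under the floor, the list genes named as at 0 or too low, the sex-linked genes and the promoter motifs were chosen after values were seen. A gene of the marker lists is not reported here. Alternatives were recovered reads, a replicate block, the same median in each library, library totals, other filters and each library left out. Recovered reads with the block or without each library were added after seeing the data.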

Additional observations from a re-analysis of the deposited data

How the results depend on the processing

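Across all genes, 5298 were called higher and 5258 lower, and these counts stayed within 1.5 times under each alternative run except one: with a mean of at least 50 recovered reads, 3510 genes were called higher (and 3736 lower) because fewer genes, 10256, were tested. With the replicate number as a replicate block, 5542 genes were called higher and 5513 lower, and the pathway lists had 61 higher and 53 lower. Deviations from the group mean, not the libraries themselves, were correlated across genes between WT and *Piezo1 cKO* libraries. Same-numbered libraries gave 0.195, 0.161 and 0.0696, so the numbers were not taken to pair the samples. Each library's deviations correlated best with those of its own number, as a hint from the data. The deviations within a group are tied to each other through its mean, so these correlations are not independent. Recovered reads with the block, added after seeing the data, gave 5621 higher and 5603 lower. Without each library in turn, 4746 to 5051 genes were called higher and 4850 to 5070 lower. Of the 110 calls in the pathway lists, the replicate block kept 110, recovered reads 109, the same median 106 and no filter 106. Leaving out a library kept 102 to 106 on deposited values and 101 to 104 on recovered reads. None turned to the opposite direction in any of these settings. Of 91 called genes other than the 10 that were taken by the naming rule or named as markers, MLL-AF9 program or sex-linked genes, *Rel*, *Nfkbiz*, *Il1rl1* and *Uty* lost the call in some setting. *Fcgr3*, not called, went from a log2 fold change of -0.02 to 0.01 with each library at the same median (adjusted p = 0.837), and *Hoxa10*, not called, from -0.01 to 0.01. With each library left out, uncalled genes near 0 took either sign: *Hoxa9* ran from -0.03 to 0.04 on deposited values and from -0.04 to 0.05 on reads, *Hoxa10* ran from -0.02 to 0.01 on deposited values and from -0.04 to 0.01 on reads, *Ddx3y* ran from -0.03 to 0.02 on deposited values and from -0.04 to 0.03 on reads, and *Kdm5d* ran from -0.03 to 0.04 on deposited values and from -0.07 to 0.09 on reads. The cause was not tested. The *Cd14* difference ran from -2.69 to -2.62 and that of *Tlr4* from -1.04 to -0.98 when each library was left out. On reads, that of *Tlr7* ran from 0.92 to 1.34 and that of *Tlr13* from 1.76 to 2.27, while *Tlr9*, with at most 4 reads per library, is limited by depth.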

Other observations

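*Tlr7*, *Tlr8* and *Tlr13* lie on the X chromosome, so sex-linked genes were read as values in the same libraries, chosen after the data were seen. *Xist*, which is transcribed from the inactive X chromosome of females, had 1 read in WT replicate 1 and none in the other 5 libraries. The Y-linked gene *Ddx3y* had 2141, 1971 and 2089.6 normalized reads in WT and 2198, 1995 and 2021 in *Piezo1 cKO* libraries, and *Eif2s3y* had 561, 525 and 517 in WT and 550.5, 501 and 465 in *Piezo1 cKO* libraries. *Kdm5d* had 169.8, 186 and 182 in WT and 175.5, 165 and 206 in *Piezo1 cKO* libraries. *Uty* had 2918, 2771 and 2952 in WT and 3183, 2948 and 3208 in *Piezo1 cKO* libraries. *Uty* was called higher in *Piezo1 cKO* LSCs (log2 fold change 0.08, limma adjusted p = 0.0245), and its call was lost without *Piezo1 cKO* replicate 1 (adjusted p = 0.0759), *Piezo1 cKO* replicate 3 (0.121) or WT replicate 2 (0.134). The *Uty* call was also lost with no filter on low values (limma adjusted p = 0.0523). *Ddx3y*, *Eif2s3y* and *Kdm5d* were not called. The ranges of the groups overlapped for each of these genes.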
